A study of Homo sapiens with 36 samples.

Results

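The response of the PELO line to doxycycline (dox) was followed from 48 h to 96 h. The line is MIA PaCa-2, a human pancreatic carcinoma cell line, with dox-inducible Cas9 and a guide against PELO, so that dox switches on the knockout. All groups shared RPMI medium with tetracycline-free serum, and polyadenylated RNA was sequenced. The 4 groups of the PELO line were 48 h without dox, 48 h with 2 µg/mL dox, 96 h without dox and 96 h with 2 µg/mL dox, each with 3 libraries. These 12 of the 36 libraries in the series are the ones described here. A control line with a non-targeting guide, taken at the same times with and without dox (12 libraries), is used for values set beside them. The stated aim of the series was to see what loss of PELO or HBS1L does to cells whose SKI complex is destabilised. Each guide is represented by 1 line, and nothing in the labels says whether the replicates were separate cultures, so the p-values measure the spread between these libraries only.

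PELO (Pelota) and the GTPase HBS1L recognise ribosomes that have stopped on a message, at its end or within it, and with ABCE1 split them into subunits. The SKI complex, a helicase bound to the exosome, pulls such messages out of stalled ribosomes and feeds them to decay from the 3′ end. FOCAD stabilises the SKI complex, and its gene lies in chromosome band 9p21, which is often lost in tumours together with CDKN2A and MTAP. FOCAD and CDKN2A had at most 1 count and MTAP at most 2 counts in any PELO-line library.

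In what follows the dox response at a time is the log2 level with dox minus that without dox at that time. The change of the response is the response at 96 h minus the response at 48 h, so a positive value means that the difference between dox and no dox moved upward. Log2 values are given ± SE from the fit, adjusted p-values are from edgeR's quasi-likelihood test over 19521 genes, and levels are in CPM (counts scaled to library size), with averages given ± SD over the 3 libraries of a group. The 3 values of a group are listed in the order of replicates 1 to 3. The gene lists were drawn up from known functions, and members named beyond those with the smallest adjusted p in a list were chosen as examples after their values were seen.

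Libraries held 45356024 to 59214970 counts, except 96 h with dox replicate 2 at 107436235. In each group 2 libraries were much closer to each other than to the third. Their counts differed by a chi-square of 1.93 to 4.38 per gene, against 16.2 to 22.5 for the other pairs, where sampling noise alone gives about 1. The libraries standing apart were 48 h without dox replicate 3, 48 h with dox replicate 1, 96 h without dox replicate 3 and 96 h with dox replicate 1. All differed by more than sampling noise, and each was kept as 1 of 3. That does not show that the libraries of a close pair came from separate cultures. If they did not, the spread is understated and too many genes are called. Summing each close pair into 1 library lowered the number of genes whose response changed from 7495 to 4646, and with the libraries that stand apart left out it was 10047. The latter setting keeps only the close pairs. If these were not separate cultures, it understates the spread most, and calls gained under it carry that limit. Counts of changed genes in a group are also given under either setting where one of them moved by over 1.5 times, moved from or to 0, or where the more frequent direction turned.

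The PELO message was lower with dox at 48 h and was not called at 96 h. PELO (ENSG00000152684.11, chromosome 5, 52787940 to 52804046, + strand, GRCh38 coordinates from GENCODE) held 23.2, 25.3 and 25.3 CPM without dox and 20.6, 19.8 and 20.6 CPM with dox at 48 h, and 28.1, 26.9 and 30.9 CPM without and 28.9, 26.4 and 26.8 CPM with dox at 96 h. The dox libraries lay below the no-dox libraries at 48 h (-0.27 ± 0.06, adjusted p = 0.00193) and overlapped them at 96 h (-0.06 ± 0.06, adjusted p = 0.363). Its change of response was 0.21 ± 0.09 (adjusted p = 0.0704), and it passed the threshold without 48 h no dox replicate 1 (adjusted p = 0.0312), without 96 h no dox replicate 3 (0.0157) and without 96 h dox replicate 2 (0.0479). Control-line PELO averaged 27.5 ± 1.05 CPM without and 24.3 ± 0.987 CPM with dox at 48 h, and 27.4 ± 0.662 and 26.7 ± 1.0 CPM at 96 h. A guide can disable a protein without lowering its message, and the counts do not read the edited site. Exons of another gene overlap 10.9% of the exonic length of PELO.

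HBS1L, the partner of PELO, responded late. HBS1L (ENSG00000112339.15, chromosome 6, 134960378 to 135103056, - strand) held 128, 129.5 and 129.6 CPM without dox and 122, 128 and 125 CPM with dox at 48 h, and 147, 143 and 151 CPM without and 209, 216 and 218 CPM with dox at 96 h. The groups overlapped at 48 h, whereas all dox libraries lay above all no-dox libraries at 96 h. The change of the response was 0.59 ± 0.06 (adjusted p = 2.12e-06), against -0.04 ± 0.06 in the control line (adjusted p = 0.672). The difference between the lines was 0.62 ± 0.08 (adjusted p = 2.42e-06).

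Dox changed more genes at 96 h than at 48 h. At 48 h 8857 of 19521 genes (45.4%) passed an adjusted p of 0.05, 4727 higher (24.2%) and 4130 lower (21.2%). At 96 h 13067 (66.9%) passed, 6595 higher (33.8%) and 6472 lower (33.2%). The response itself changed between the times for 7495 genes (38.4%), upward for 3613 (18.5%) and downward for 3882 (19.9%), of which 653 and 830 moved by at least 2-fold. With so many genes called, a gene group is read against these shares. The median change over all genes was -0.01 on the log2 scale.

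Genes were sorted into time classes by these tests. Early genes were called at 48 h but not at 96 h, and late genes at 96 h but not at 48 h, each with a called change. The other classes were called at both times: waning genes less at 96 h, growing genes more, sustained genes with no called change, and reversed genes in opposite directions. A response that was not called may still be present. There were 563 early genes (320 higher and 243 lower with dox at 48 h), 185 waning (148 and 37), 3649 sustained (2035 and 1614), 3326 growing (1664 and 1662) and 404 reversed (225 and 179). Late genes numbered 2939, 1445 higher and 1494 lower at 96 h. The other genes were called in some of the 3 tests without meeting a class (3372) or in none (5083). Growing genes went from a median response of 0.45 to 0.96 where higher and from -0.45 to -1.1 where lower. The classes follow from the tests, so these medians are descriptions.

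**Figure D1:**
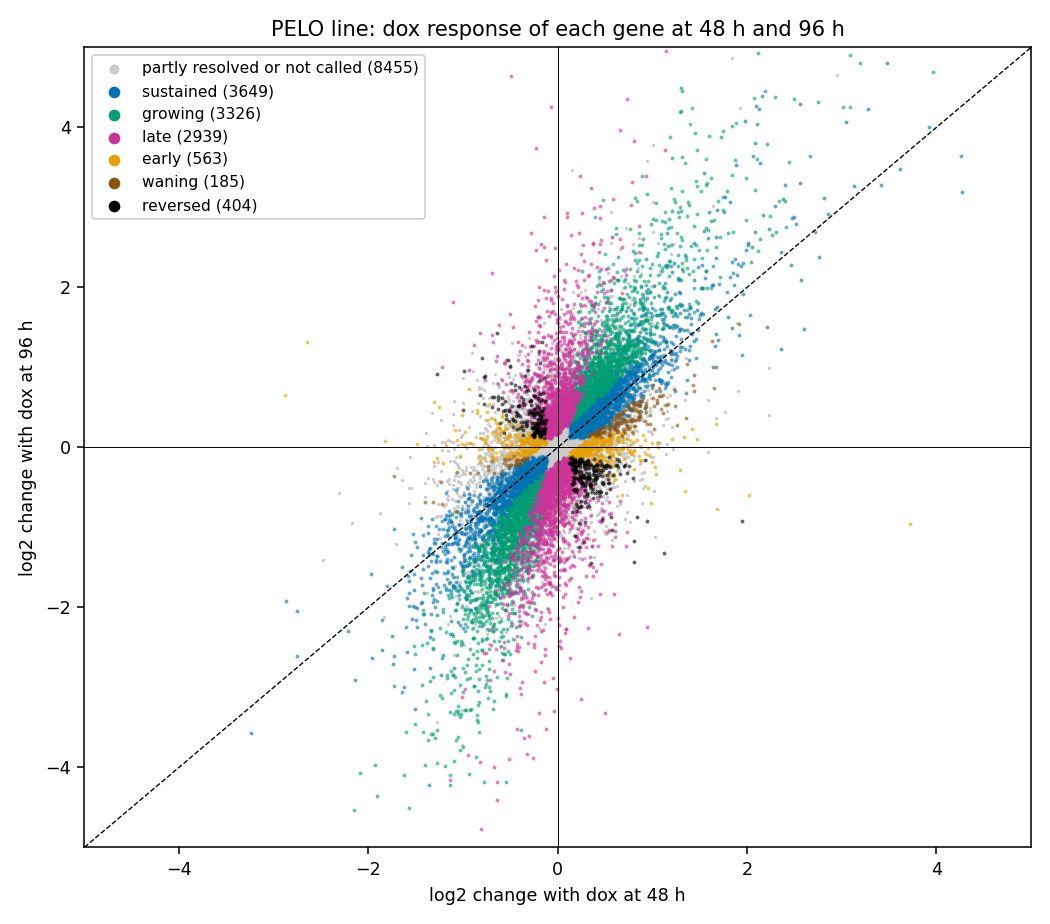
Log2 dox response of each gene at 48 h (x axis) and at 96 h (y axis) in the PELO line, coloured by time class, with the number of genes in the key. The dashed line marks equal responses: sustained genes (3649) lie along it, growing genes (3326) are steeper and late genes (2939) lie near the vertical axis; 33 genes fall outside the range of -5 to 5.

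A change of response can come from libraries with dox, from those without, or from both. The dox libraries differed more between the times than the no-dox libraries for 2652 of the 3613 genes moving upward (73.4%) and 2757 of the 3882 moving downward (71.0%). This share was 55.3% among genes called in none of the tests and 57.9% among sustained genes. By class it was 77.9% for growing, 71.0% for late, 65.3% for reversed, 56.8% for early and 53.5% for waning genes. Late lower genes had a median difference between 96 h and 48 h of -0.48 with dox and 0.19 without. For early higher genes these medians were -0.27 and 0.19, so that both kinds of library approached each other. Levels at 96 h and 48 h were compared across times, where time and a batch cannot be told apart. The change of the response sets each time against its own no-dox libraries.

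**Figure D2:**
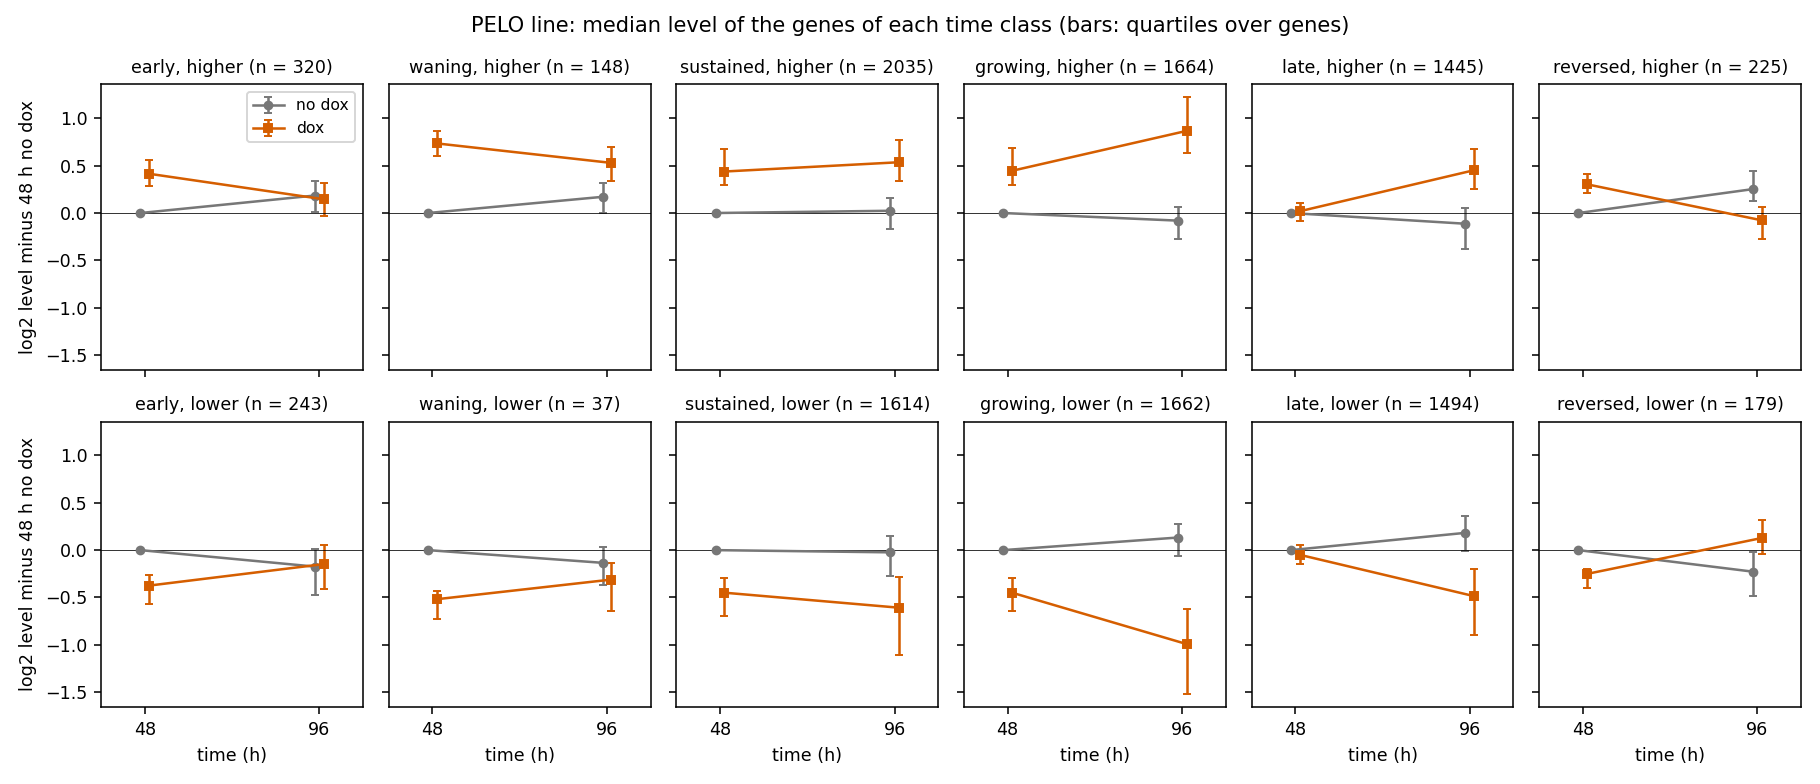
Median log2 level of the genes of each time class relative to 48 h without dox (y axis) at 48 h and 96 h (x axis), with dox (squares) and without (circles); bars span the quartiles over genes, and 0.05 CPM was added before the log. In the early and reversed classes the dox and no-dox courses meet or cross, and in the growing and late classes they part, mainly through the dox course.

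Among called genes with a mean of at least 5 CPM the largest upward changes were of LCN2, LIPC, BCAT1, IL1B and CCND2. LCN2, a secreted carrier of iron-binding siderophores, held 2.32, 2.43 and 2.44 CPM without dox and 9.09, 9.76 and 9.46 CPM with dox at 48 h, and 0.522, 0.639 and 0.254 CPM without and 23.9, 22.3 and 18.8 CPM with dox at 96 h. The groups did not overlap at either time, and the change was 3.54 ± 0.22 (adjusted p = 1.30e-08). LIPC, hepatic lipase, averaged 2.23 ± 0.156 CPM without and 5.89 ± 0.0418 CPM with dox at 48 h, then 1.35 ± 0.305 and 22.2 ± 0.486 CPM (2.64 ± 0.15). BCAT1, which transfers the amino group of branched-chain amino acids, changed by 2.61 ± 0.11, IL1B, an inflammatory cytokine, by 2.49 ± 0.12 and CCND2, cyclin D2, by 2.41 ± 0.14. With the non-targeting guide the same change was 1.29 for LCN2, 1.5 for LIPC, 2.3 for BCAT1, 2.72 for IL1B and 2.64 for CCND2, all called. Beyond the control line LCN2 (2.25 ± 0.34) and LIPC (1.13 ± 0.25) passed, whereas BCAT1 (0.31 ± 0.20), IL1B (-0.23 ± 0.23) and CCND2 (-0.23 ± 0.25) did not.

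Under the same rule the largest downward changes were of TNFSF10, OASL, GRB7, ZNF467 and BST2. TNFSF10, the death ligand TRAIL, averaged 8.0 ± 0.147 CPM without and 4.17 ± 0.238 CPM with dox at 48 h, then 9.82 ± 0.787 and 0.617 ± 0.19 CPM (-3.14 ± 0.19). GRB7, an adaptor of receptor tyrosine kinases, averaged 29.6 ± 1.03 CPM without and 13.03 ± 0.288 CPM with dox at 48 h, then 31.9 ± 0.596 and 2.02 ± 0.252 CPM (-2.79 ± 0.10), and ZNF467, a zinc finger protein, changed by -2.75 ± 0.16. GRB7 was not called in the control line (-0.19 ± 0.08, adjusted p = 0.0845). All 5 genes fell beyond the control line, by 1.67 for TNFSF10, 2.05 for OASL, 2.61 for GRB7, 2.09 for ZNF467 and 1.63 for BST2.

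Interferon-stimulated genes, the antiviral genes that interferon signalling switches on, went lower with dox and lower still at 96 h. Of 35 tested, 19 were lower and 2 higher at 48 h, 29 lower and 3 higher at 96 h, and the response of 25 changed downward and of 2 upward (median -0.80). Downward and upward changes numbered 21 and 0 with the close pairs summed, and 25 and 4 without the libraries that stand apart. The dox libraries had a median difference of -0.84 between the times and the no-dox libraries of 0.02. IFIT1, which binds RNA with an incomplete cap, held 29.2, 31.2 and 30.4 CPM without dox and 17.3, 17.4 and 15.5 CPM with dox at 48 h, and 38.1, 39.6 and 43.3 CPM without and 4.25, 3.96 and 3.67 CPM with dox at 96 h. All dox libraries lay below all no-dox libraries at both times, and the change was -2.49 ± 0.10 (adjusted p = 1.39e-10).

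BST2, or tetherin, which holds budding virus at the cell surface, held 12.1, 11.4 and 11.1 CPM without dox and 4.64, 4.82 and 4.83 CPM with dox at 48 h, and 9.29, 10.2 and 9.53 CPM without and 0.751, 0.665 and 0.457 CPM with dox at 96 h. The dox libraries again lay below at both times (-2.66 ± 0.15, adjusted p = 5.00e-09). OASL, which boosts RNA sensing, held 7.75, 8.48 and 7.88 CPM without dox and 6.84, 6.76 and 7.39 CPM with dox at 48 h, and 7.92, 8.62 and 10.5 CPM without and 1.21, 0.886 and 0.633 CPM with dox at 96 h. Its change was -3.13 ± 0.19 (adjusted p = 1.15e-08), and it was a late gene: the 48 h groups were apart, yet the response of -0.20 ± 0.12 there did not pass (adjusted p = 0.19). The membrane proteins IFITM1 and IFITM3, which block viral entry, changed by -2.32 ± 0.10 and -2.16 ± 0.12, with exons of other genes overlapping 32.5% of IFITM1 and 21.3% of IFITM3. The helicase sensors IFIH1 (-1.26), DHX58 (-1.27) and RIGI (-0.75) and the factors STAT2 (-0.58) and IRF9 (-0.57) changed downward too. TRIM25, a ubiquitin ligase, changed upward by 0.26 ± 0.09, while PARP14 (0.15 ± 0.14) and DTX3L (0.03 ± 0.09) stayed lower at both times with no called change. Beyond the control line 18 of the list were called lower, where 11.8% of 20312 genes were lower and 6.21% higher. The control line itself changed downward for 17 of the list and upward for 3 (median -0.36), where 10.6% and 13.4% of genes did. With dox at 48 h 14 were higher there, where 32.7% of genes were called in either direction (15.6% higher).

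Promoters of this list are shown because its members moved together. The core of the interferon-stimulated response element, GAAA followed by GAAA with 2 bases between them, was searched on both strands (TTTC and TTTC on the other). Among RefSeq promoters (GRCh38.p14, 250 bases before to 50 after the start) 18 of the 28 list members found held it (64.3%), against 3.65% of 27305 promoters. Of the holders IFIT5, MX1, SAMD9, PARP14, DTX3L and EIF2AK2 had no called change. Without the letters RSAD2, OAS1, RIGI, PARP9, STAT2, IRF9 and IRF1 changed downward too, IFI35 and HERC6 were not called, and TRIM25 went upward. The 160 bases before the start follow for 4 genes that changed downward and for PARP14, which holds the letters and had no called change, with matches in capitals. In BST2 and ISG15 a pair of matches overlaps.
IFIT1, chr10:89392463-89392622, + strand: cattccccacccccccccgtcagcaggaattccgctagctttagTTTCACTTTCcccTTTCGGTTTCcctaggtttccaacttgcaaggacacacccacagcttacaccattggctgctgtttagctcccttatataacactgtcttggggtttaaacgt
IFITM3, chr11:320861-321020, - strand: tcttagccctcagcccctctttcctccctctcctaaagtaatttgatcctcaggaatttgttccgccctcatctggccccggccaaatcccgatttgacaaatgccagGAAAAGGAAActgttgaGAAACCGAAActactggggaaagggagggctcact
BST2, chr19:17405631-17405790, - strand: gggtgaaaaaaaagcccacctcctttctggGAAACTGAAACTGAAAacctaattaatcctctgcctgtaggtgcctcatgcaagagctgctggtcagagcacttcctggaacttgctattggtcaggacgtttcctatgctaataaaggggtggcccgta
ISG15, chr1:1013337-1013496, + strand: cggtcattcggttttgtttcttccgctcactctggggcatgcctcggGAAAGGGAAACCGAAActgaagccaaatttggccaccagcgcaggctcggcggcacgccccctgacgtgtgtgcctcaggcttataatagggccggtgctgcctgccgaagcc
PARP14, chr3:122680679-122680838, + strand: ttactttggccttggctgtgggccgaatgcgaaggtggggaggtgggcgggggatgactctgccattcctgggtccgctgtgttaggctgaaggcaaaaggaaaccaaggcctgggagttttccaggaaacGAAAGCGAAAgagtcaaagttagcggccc

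Antigen presentation did not move as 1 group. Of 15 MHC class I genes 3 changed upward and 4 downward, or 3 and 2 with the close pairs summed. These shares are near those of all genes, 18.5% upward and 19.9% downward. TAPBP, which loads peptides, averaged 152 ± 4.34 CPM without and 88.7 ± 4.58 CPM with dox at 48 h, then 118 ± 1.63 and 47.8 ± 3.33 CPM (-0.53 ± 0.08). The immunoproteasome subunit PSMB9 changed by -0.92 ± 0.16, and ERAP1, which trims peptides, reversed (0.88 ± 0.12).

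Genes of mitosis were higher with dox at 48 h and turned at 96 h. Of 30 tested 26 were higher at 48 h, 5 higher and 15 lower at 96 h, and the response of 27 changed downward (median -0.69), 22 with the close pairs summed and 30 without the libraries that stand apart. By class 13 reversed, 8 were early, 3 waning, 2 sustained and 2 late. CCNB2, a mitotic cyclin, held 79.9, 77.4 and 81.7 CPM without dox and 104, 109 and 111 CPM with dox at 48 h, and 121, 117 and 107 CPM without and 79.4, 76.8 and 75.9 CPM with dox at 96 h. The dox libraries lay above the others at 48 h and below them at 96 h (-1.01 ± 0.07, adjusted p = 6.48e-08). CDK1, the kinase that drives entry into mitosis, held 69.3, 70.7 and 73.3 CPM without dox and 109, 123 and 123 CPM with dox at 48 h, and 106, 104 and 101 CPM without and 107, 102 and 103 CPM with dox at 96 h. It was early: the groups were apart at 48 h and overlapped at 96 h (-0.73 ± 0.07, adjusted p = 1.74e-06).

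The kinesins KIF2C (0.64 at 48 h and -0.24 at 96 h) and KIF20A (0.29 and -0.93) also reversed, as did FOXM1, a transcription factor of mitotic genes (0.45 and -0.22). AURKA, TPX2 and CDC20, which build the spindle or release its checkpoint, waned but stayed higher at 96 h, by 0.31, 0.44 and 0.19. UBE2C and HMMR, higher by 0.64 and 0.55 at 96 h, had no called change, whereas without the libraries that stand apart both were called downward (-0.14, adjusted p = 0.00472, and -0.22, adjusted p = 1.22e-04). Without dox the list lay 0.32 higher at 96 h than at 48 h by its median, and with dox -0.34. The rise at 48 h was also seen in the control line, with 20 higher and 1 lower with dox (median 0.26; background 15.6% and 17.1% of 20312 genes). Between the times 10 members changed downward there and 1 upward (background 10.6% and 13.4%), and beyond the control line 19 were called lower.

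The cell cycle genes homology region, TTTGAA on either strand (TTCAAA on the other), stood in 16 of 24 promoters of the mitosis list (66.7%) and in 15.4% of all promoters. Of the holders HMMR had no called change. The holders CENPF, MKI67 and ASPM were called, but not with the close pairs summed (adjusted p from 0.18 to 0.205). Without the letters CCNB1, CDC25C, AURKB, BUB1, KIF20A, KIF2C and PTTG1 changed downward too, and CENPE was not called. For 3 genes that changed downward the 160 bases before the start are shown with the match in capitals, near the start in each.
CCNB2, chr15:59104986-59105145, + strand: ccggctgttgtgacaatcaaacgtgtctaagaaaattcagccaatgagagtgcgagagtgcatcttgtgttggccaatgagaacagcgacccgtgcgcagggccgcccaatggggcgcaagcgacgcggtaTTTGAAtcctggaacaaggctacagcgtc
PLK1, chr16:23678729-23678888, + strand: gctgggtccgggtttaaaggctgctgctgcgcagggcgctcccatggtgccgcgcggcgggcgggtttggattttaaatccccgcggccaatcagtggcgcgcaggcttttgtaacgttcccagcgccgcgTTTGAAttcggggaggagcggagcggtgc
KIF11, chr10:92592970-92593129, + strand: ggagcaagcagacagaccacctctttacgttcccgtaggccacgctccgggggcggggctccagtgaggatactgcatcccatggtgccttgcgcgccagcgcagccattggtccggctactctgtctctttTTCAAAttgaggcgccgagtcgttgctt

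DNA replication genes changed downward in both lines. In the PELO line 22 of 41 were higher and 3 lower at 48 h, 6 higher and 30 lower at 96 h, and 35 changed downward and 1 upward (median -0.59; 3 upward without the libraries that stand apart). Among control libraries 35 changed downward (median -0.53), and the difference between the lines was called lower for 9 and higher for 10. With dox at 48 h 39 were higher in the control line (median 0.53, against 0.19 in the PELO line), where 15.6% of all genes were. LIG1, a DNA ligase (-1.3 ± 0.09), POLD1, a replicative polymerase (-1.05 ± 0.10), and CDT1, which licenses origins (-0.99 ± 0.09), changed downward, and did so beyond the control line (-0.64, -0.82 and -0.80). Among 14 regulators of G1, 2 changed upward and 7 downward (4 and 7 without the libraries that stand apart). CDKN1A, the inhibitor p21, changed upward by 1.5 ± 0.18 and averaged 5.37 ± 0.447 CPM without and 23.1 ± 0.868 CPM with dox at 48 h, then 3.45 ± 0.931 and 42.00 ± 1.77 CPM. The inhibitors CDKN2C (-1.23 ± 0.11), CDKN2D (-1.6 ± 0.11) and CDKN1B (-0.43 ± 0.07) changed downward. Of 13 histone genes 5 changed upward and 3 downward.

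**Figure D3:**
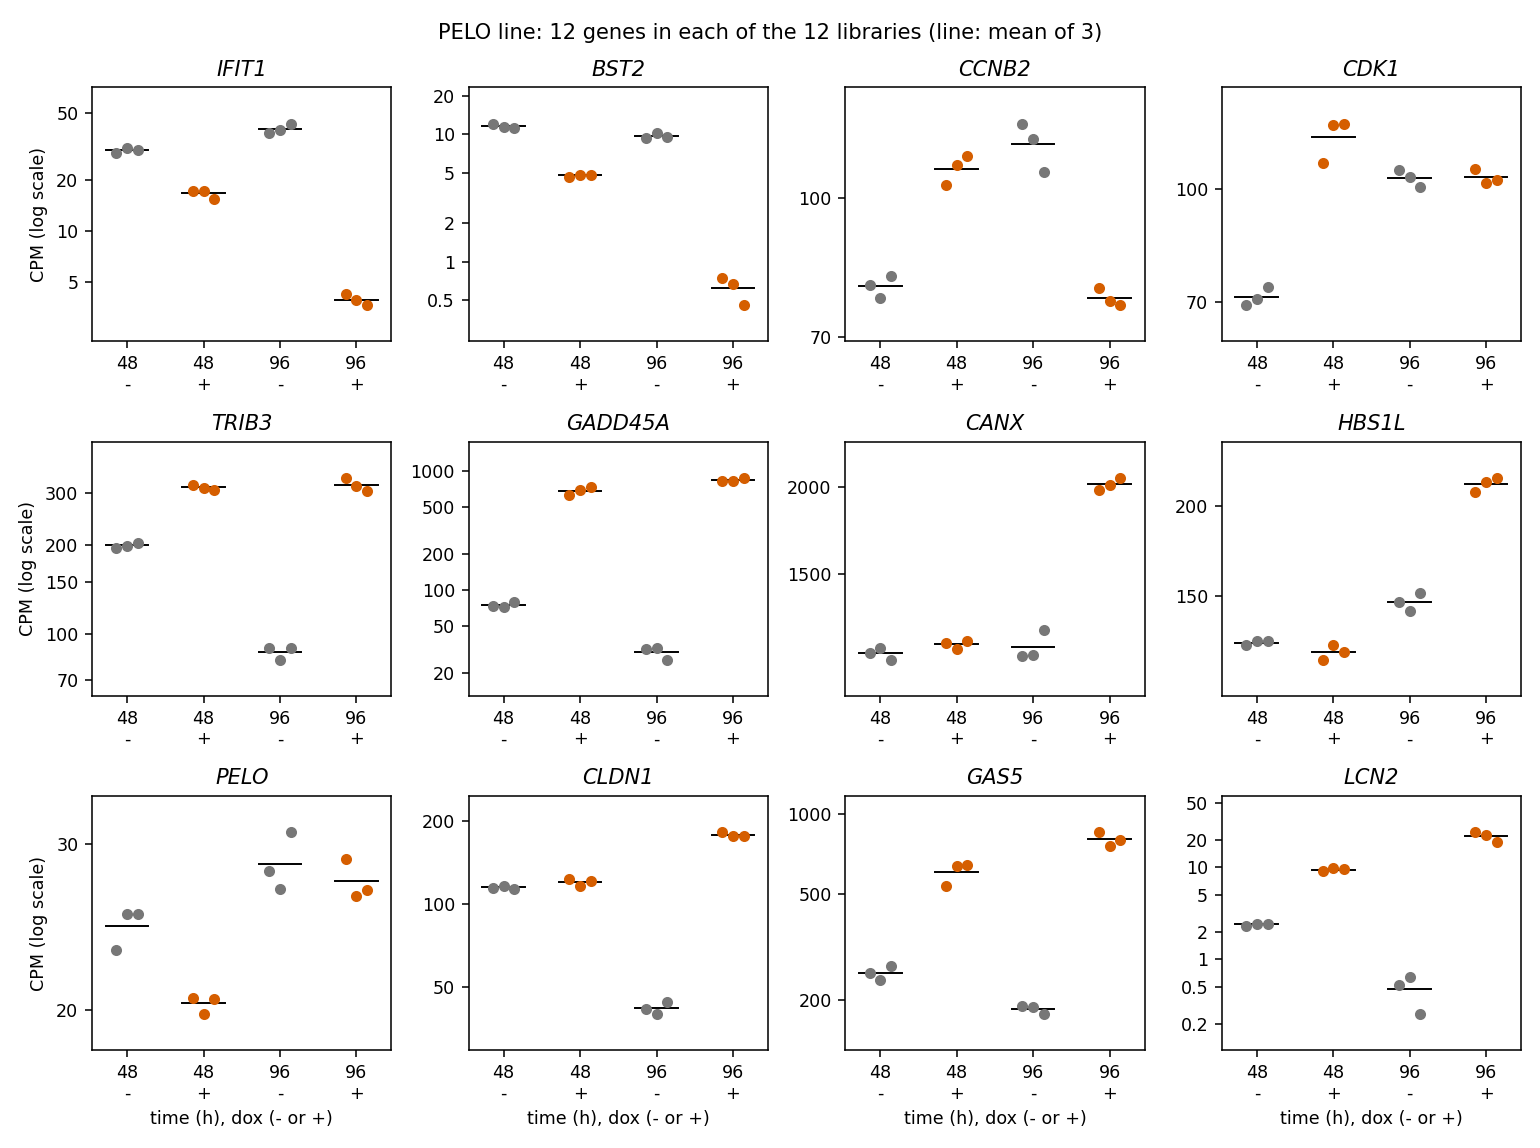
CPM (log axis) of 12 genes in each of the 12 PELO-line libraries, at 48 h and 96 h without (grey, -) and with dox (orange, +); lines are means of 3 libraries. CCNB2 crosses over between the times, IFIT1 and BST2 fall further at 96 h, and the TRIB3 values with dox are alike at both times while those without dox are lower at 96 h.

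Genes of the integrated stress response, which ATF4 switches on when eIF2 is phosphorylated, had a response that changed upward. At 48 h 16 of 24 were higher and 3 lower with dox, at 96 h 21 were higher, and 19 changed upward (median 0.78; 18 with the close pairs summed). The levels place this mostly in the no-dox libraries: their median difference between the times was -1.15, and that of the dox libraries -0.18. TRIB3, a pseudokinase that restrains AKT, held 196, 199 and 203 CPM without dox and 319.9, 312 and 308 CPM with dox at 48 h, and 89.7, 82.1 and 90.2 CPM without and 337, 315 and 305 CPM with dox at 96 h. With dox its level was alike at both times, and without dox all 96 h libraries lay below all 48 h libraries (1.22 ± 0.07, adjusted p = 8.20e-09). ATF4 itself held 449, 457 and 484 CPM without dox and 709, 729 and 710.1 CPM with dox at 48 h, and 245, 246 and 199 CPM without and 798, 749.9 and 788 CPM with dox at 96 h. It was apart at both times and lowest at 96 h without dox (1.13 ± 0.10), and PPP1R15A, which dephosphorylates eIF2, changed by 1.17 ± 0.11.

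The control line changed in the same direction and further, with 23 of the list upward (median 1.63). This came from 48 h, where 24 members were lower with dox (median -1.74; 17.1% of all genes), and at 96 h 1 was higher (median -0.05; 2.77% of all genes). Its TRIB3 level averaged 278 ± 8.88 CPM without and 48.3 ± 1.23 CPM with dox at 48 h, and 61.1 ± 2.43 and 64.1 ± 4.55 CPM at 96 h, so that the 48 h libraries without dox were the high ones. Set against the control line, 20 members were lower (median -0.79). TRIB3 stood at -1.38 ± 0.11, ATF3 at -1.39 ± 0.18 and GDF15, a secreted stress signal, at -2.6 ± 0.18, while ATF4 (-0.02 ± 0.13) and PPP1R15A (-0.04 ± 0.13) were not called. The direction of the list thus turns with the reference: upward within the PELO line, downward beyond the control line.

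**Figure D4:**
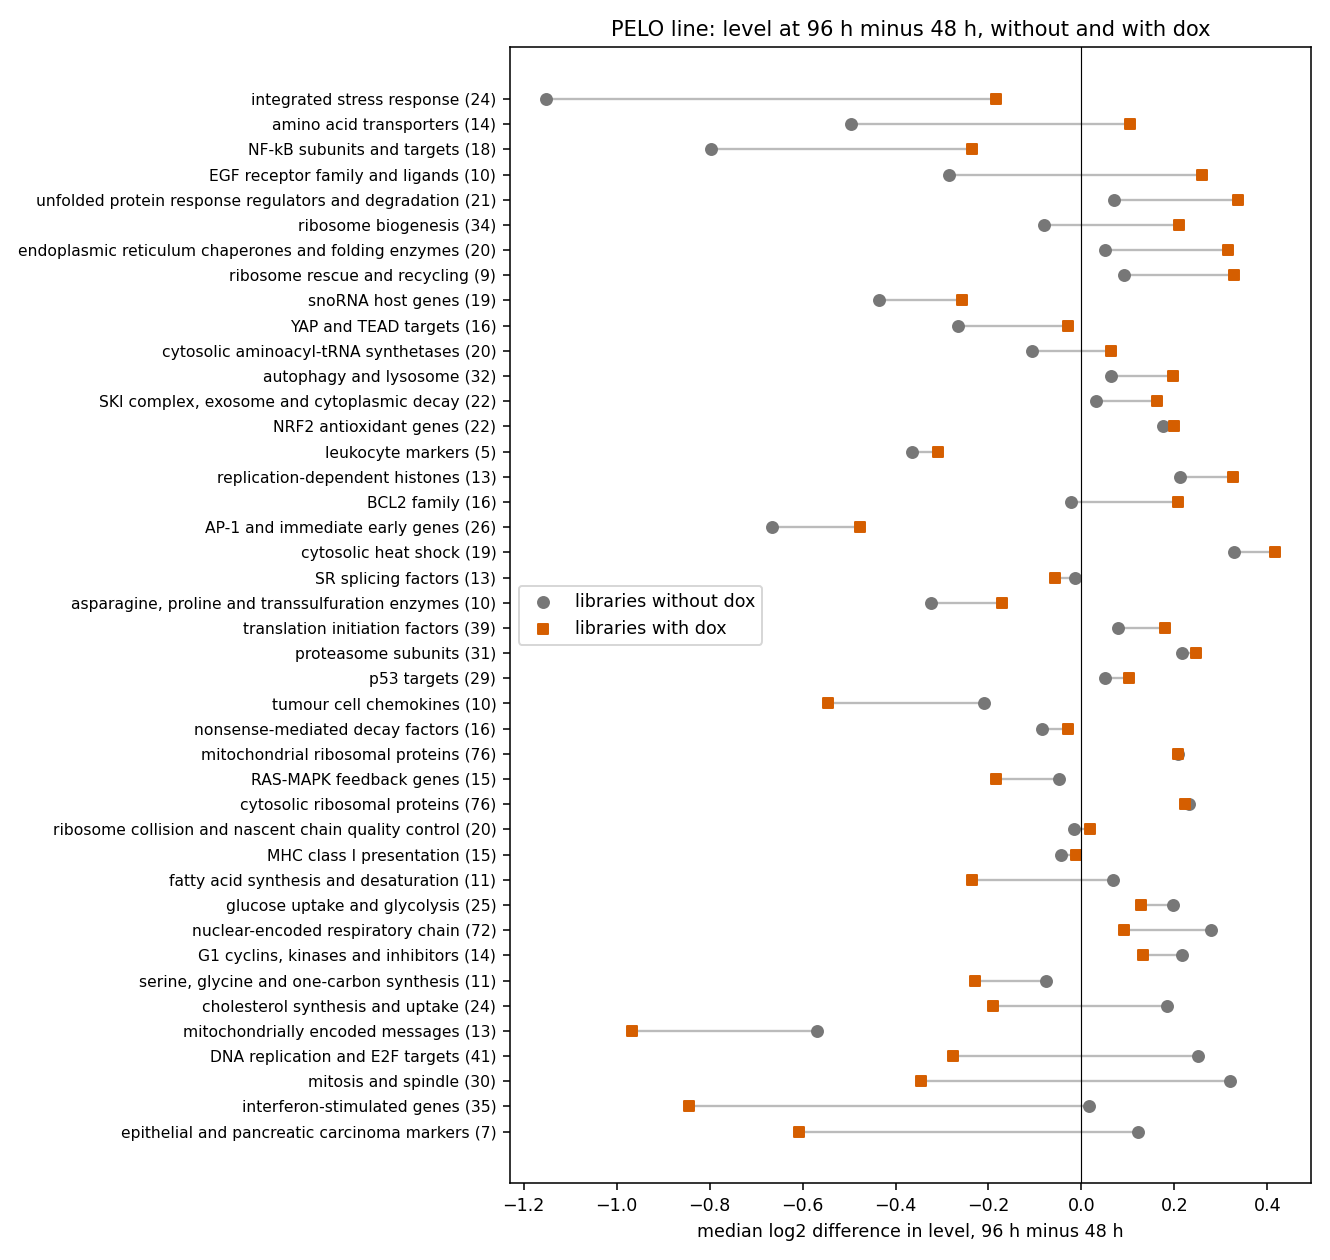
Median log2 difference in level between 96 h and 48 h (x axis) for each gene list with at least 5 tested genes (y axis, number tested in brackets), in PELO-line libraries without dox (circles) and with dox (squares); the distance between the marks reflects the change of the response. For the integrated stress response the no-dox mark lies farther from 0, and for interferon-stimulated genes the dox mark does.

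Amino acid genes that ATF4 also serves split by function. Of 14 transporters 11 changed upward and 1 downward, with a median difference between the times of 0.10 with dox and -0.50 without. SLC3A2, the heavy chain of several transporters, averaged 236 ± 2.47 CPM without and 374 ± 8.65 CPM with dox at 48 h, then 163 ± 1.65 and 590.0 ± 22.4 CPM (1.19 ± 0.06), and the glutamine carrier SLC38A1 (1.32 ± 0.08) and the neutral amino acid carrier SLC1A4 (1.47 ± 0.08) moved likewise. Of 20 cytosolic tRNA synthetases 10 changed upward, among them NARS1 (0.50 ± 0.06) and GARS1 (0.46 ± 0.06), and 1 downward, QARS1 (-0.89 ± 0.08). The synthetases called upward were 5 with the close pairs summed and 16 without the libraries that stand apart. Among 11 genes of serine and one-carbon synthesis 3 changed upward and 6 downward, among the latter SHMT1 (-0.86 ± 0.08). Of 10 asparagine, proline and transsulfuration enzymes 2 changed upward and 2 downward, or 2 and 0 with the close pairs summed and 4 and 3 without the libraries that stand apart. Beyond the control line 7 transporters, 12 synthetases, 9 serine and one-carbon genes and 6 of the last list were called lower, and 2 transporters and 2 synthetases higher.

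Endoplasmic reticulum chaperones gained at 96 h. The median difference between the times was 0.31 with dox and 0.05 without. Of 20 tested 6 were higher and 6 lower at 48 h, 12 and 4 at 96 h, and 12 changed upward and 1 downward (9 and 0 with the close pairs summed, 14 and 2 without the libraries that stand apart). CANX, calnexin, which folds glycoproteins, held 1155, 1174 and 1130.0 CPM without dox and 1193, 1171 and 1202 CPM with dox at 48 h, and 1144, 1147 and 1248 CPM without and 1984, 2018 and 2062 CPM with dox at 96 h. It was late: the groups overlapped at 48 h and the dox libraries lay above at 96 h (0.73 ± 0.07, adjusted p = 8.65e-07). The co-chaperones DNAJB9 (1.03 ± 0.10) and DNAJC3 (0.95 ± 0.09) and the chaperone HYOU1 (0.72 ± 0.10) grew. HSPA5, the main chaperone BiP, was already 0.87 higher at 48 h and 1.2 at 96 h (0.33 ± 0.07). HSP90B1 (0.05 ± 0.07) and P4HB (0.03 ± 0.08) were not called, and PDIA4 and PDIA6 were lower at both times. Beyond the control line 7 rose, CANX by 0.39 and DNAJC3 by 0.64 among them, and 1 fell, HSPA5 (-0.62 ± 0.09).

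Of 21 regulators and degradation factors of the unfolded protein response 12 changed upward and 1 downward, or 18 and 2 without the libraries that stand apart. XBP1, the factor spliced on IRE1 activation, held 156 ± 5.89 CPM without and 299 ± 5.23 CPM with dox at 48 h, and 92.6 ± 3.56 and 296 ± 16.98 CPM at 96 h (0.74 ± 0.07). HERPUD1 (0.61 ± 0.06) and SEL1L (0.69 ± 0.12), parts of the machinery that removes misfolded proteins, were late. XBP1 and HERPUD1 also turned sign against the control line, at -0.90 ± 0.11 and -0.60 ± 0.09.

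The endoplasmic reticulum stress element was found in 6 of 19 chaperone promoters (31.6%) and 0.0806% of all, searched on both strands as CCAAT followed by CCACG with 9 bases between them. Of the holders HSPA5, CANX and ERO1B changed upward, CRELD2 changed downward, and HSP90B1 and CALR were not called. Without the element DNAJB9, DNAJB11, DNAJC3, HYOU1, SDF2L1, MANF, ERO1A and SIL1 changed upward too. The remaining members without it, PDIA4, PDIA6, P4HB, CRELD1 and PPIB, were not called. HSPA5 and CANX are shown because one responded at both times and the other late, with the match in capitals.
HSPA5, chr9:125241344-125241503, - strand: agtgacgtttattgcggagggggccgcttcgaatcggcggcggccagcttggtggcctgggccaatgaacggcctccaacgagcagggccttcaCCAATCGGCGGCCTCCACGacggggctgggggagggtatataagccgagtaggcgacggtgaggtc
CANX, chr5:179698769-179698928, + strand: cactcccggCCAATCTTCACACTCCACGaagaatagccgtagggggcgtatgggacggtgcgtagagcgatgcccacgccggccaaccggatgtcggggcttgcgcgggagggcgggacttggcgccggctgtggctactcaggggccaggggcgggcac
The ATF4 site letters TGATGNAAN, searched on both strands, were held by 4 of 21 stress response promoters (19.1%, against 3.67% of all).

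Genes known as p53 targets were mostly higher with dox at both times. MIA PaCa-2 carries a mutant p53. Of 29 tested 23 were higher and 3 lower at 48 h, and 24 and 5 at 96 h, while 10 changed upward and 8 downward. GADD45A, a stress gene that slows the cycle, held 72.98, 71.7 and 80.1 CPM without dox and 631, 697 and 729.7 CPM with dox at 48 h, and 31.8, 32.7 and 26.1 CPM without and 832, 817 and 874 CPM with dox at 96 h. The dox libraries exceeded the others at both times, and the change was 1.6 ± 0.11 (adjusted p = 2.93e-08), with 1.76 ± 0.10 in the control line, where its levels were 88.9 ± 3.01 CPM without and 30.1 ± 1.68 CPM with dox at 48 h, and 38.2 ± 2.19 and 43.8 ± 1.02 CPM at 96 h. SESN2, an inhibitor of mTORC1 (1.47 ± 0.07), and TNFRSF10B, a TRAIL receptor (0.54 ± 0.08), grew. PPM1D (-0.40 ± 0.07), BTG2 (-0.50 ± 0.09) and GADD45B (-0.54 ± 0.09) waned, MDM2 was sustained (1.39 at 48 h and 1.22 at 96 h), and the repair genes DDB2 (-0.85 ± 0.10) and POLH (-1.01 ± 0.15) were late and lower. Beyond the control line 1 rose, TP53I3 (0.62 ± 0.15), and 11 fell.

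In the BCL2 family 5 of 16 changed upward and 3 downward. PMAIP1, the death-promoting NOXA, held 23.4 ± 1.33 CPM without and 32.9 ± 2.39 CPM with dox at 48 h, and 11.5 ± 0.712 and 47.9 ± 2.62 CPM at 96 h (1.56 ± 0.10), and HRK (1.95 ± 0.14) and BCL2L11, or BIM (0.42 ± 0.09), also moved upward. BMF (-2.2 ± 0.21) and BAD (-0.83 ± 0.13), of the same death-promoting kind, moved downward. The protective BCL2 (1.16 ± 0.11) and BCL2L1 (0.53 ± 0.08) moved upward and MCL1 (0.10 ± 0.08) was not called. Control libraries had 7 upward and 1 downward, and beyond them 1 was higher and 7 lower.

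Among 9 genes of ribosome rescue and recycling 5 changed upward and 2 downward, or 5 and 0 with the close pairs summed. ABCE1, which splits the ribosome with PELO and HBS1L, reversed from -0.15 at 48 h to 0.50 at 96 h (0.64 ± 0.07). The release factor genes ETF1 (0.50 ± 0.07) and GSPT1 (0.31 ± 0.06) also moved upward. GTPBP2 (0.65 ± 0.08) and GTPBP1 (-0.37 ± 0.11), relatives of HBS1L, moved in opposite directions, though GTPBP1 was not called with the close pairs summed (adjusted p = 0.055). Of 20 genes of ribosome collision and nascent chain control, 4 changed upward and 3 downward (3 and 1 with the close pairs summed). Of all genes 18.5% changed upward and 19.9% downward. ZNF598, which tags collided ribosomes, changed by 0.45 ± 0.07, and N4BP2 by 1.11 ± 0.13.

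Subunits of the SKI complex were not among the decay genes that moved upward. Of 22 genes of the SKI complex, the exosome and cytoplasmic decay 11 changed upward and 2 downward, or 5 and 1 with the close pairs summed. SKIC2, the helicase, was late and lower (-0.33 ± 0.08), and SKIC3, the scaffold, was lower at both times (-0.48 ± 0.06 at 48 h and -0.61 ± 0.06 at 96 h). SKIC8 was called at neither. The nuclear helicase MTREX (0.38 ± 0.07) and the nuclease DIS3 (0.36 ± 0.09) were late and higher, and EXOSC3, EXOSC4, EXOSC6 and EXOSC9, exosome subunits, grew by 0.23 to 0.37. DCP2, which removes caps, waned (-0.53 ± 0.09).

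Nonsense-mediated decay factors were mostly higher with dox at both times. Of 16 tested 9 were higher at 48 h and 11 at 96 h, 6 in the sustained class, and 3 changed upward, SMG5 (0.31 ± 0.10), RBM8A (0.55 ± 0.07) and MAGOH (0.28 ± 0.08). That share is near the 18.5% of all genes that changed upward. SMG5 was not called with the close pairs summed (adjusted p = 0.0815). With the libraries that stand apart left out 9 changed upward and 3 downward. Host genes of snoRNAs, whose spliced RNA is itself a target of that decay, differed among themselves: 7 of 19 changed upward and 4 downward, or 8 and 7 without the libraries that stand apart. GAS5 held 251, 237 and 268 CPM without dox and 538, 639 and 641 CPM with dox at 48 h, and 189, 187 and 177 CPM without and 853, 758 and 799 CPM with dox at 96 h. Dox libraries were higher at both times (0.86 ± 0.10, adjusted p = 6.03e-06). ZFAS1 changed by 0.87 ± 0.09, with 46.9% of its exons overlapped by another gene. SNHG12 was sustained (1.82 and 2.12), and SNHG4 (-0.70 ± 0.12) and SNHG3 (-0.50 ± 0.08) grew lower.

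Ribosome biogenesis genes were higher with dox and more so at 96 h. Of 34 tested 23 were higher at 48 h, 28 at 96 h, and 22 changed upward and 0 downward (18 and 0 with the close pairs summed, 27 and 3 without the libraries that stand apart). RRP9, of the U3 snoRNP, held 53.5 ± 2.65 CPM without and 83.4 ± 0.271 CPM with dox at 48 h, and 54.96 ± 3.17 and 141 ± 5.41 CPM at 96 h (0.71 ± 0.08), and the helicase DDX10 (0.62 ± 0.07) and UTP15 (0.56 ± 0.06), of the same early processing machinery, moved with it. Control libraries had 14 of the list changing upward and 1 downward, where 13.4% of all genes changed upward, and 15 were lower with dox at 48 h. Beyond the control line 7 were higher and 1 lower. Of 39 initiation factors 10 changed upward and 4 downward, or 6 and 0 with the close pairs summed and 16 and 13 without the libraries that stand apart. EIF2S1, the phosphorylated subunit of eIF2, changed by 0.58 ± 0.08, EIF4G2 by 0.56 ± 0.06 and EIF1, which guards start codon choice, by 0.57 ± 0.08. Among 76 cytosolic ribosomal protein genes 0 changed upward and 4 downward, against 0 and 0 with the close pairs summed and 3 and 47 without the libraries that stand apart. Mitochondrial ribosomal protein genes held 9 upward and 7 downward among 76, against 3 and 2 with the close pairs summed and 14 and 22 without the libraries that stand apart, where the more frequent direction turned. Members moved both ways, with MRPS6 (0.40 ± 0.09) and MRPL16 (-0.52 ± 0.08) in opposite directions. Of 13 SR splicing factors 4 changed upward and 3 downward (4 and 1 with the close pairs summed), with SRSF5 (0.61 ± 0.11) and SRSF6 (0.68 ± 0.10) up and SRSF4 (-0.67 ± 0.06) down.

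Cholesterol genes were lower at 48 h and then parted. Of 24 tested 21 were lower at 48 h, 19 lower and 4 higher at 96 h, and 15 changed downward and 5 upward (10 and 3 with the close pairs summed). INSIG1, which retains the sterol sensor SCAP, held 56.7, 57.6 and 58.95 CPM without dox and 25.5, 26.5 and 26.05 CPM with dox at 48 h, and 65.9, 66.1 and 69.9 CPM without and 18.3, 18.2 and 18.02 CPM with dox at 96 h. The dox libraries lay below at both times (-0.74 ± 0.07, adjusted p = 4.47e-07). The reductase TM7SF2 (-1.11 ± 0.13) and the regulator SREBF2 (-0.64 ± 0.10) moved with it. The synthesis enzymes HMGCS1 (0.49 ± 0.08) and SQLE (0.31 ± 0.08) were late and higher. In the control line 11 changed upward and 4 downward, and beyond it 16 were lower and 1 higher. Of 11 fatty acid genes 5 changed downward and 0 upward (1 upward without the libraries that stand apart), with SCD, a desaturase, at 1614 ± 86.8 CPM without and 602 ± 59.7 CPM with dox at 48 h, and 1593 ± 130.2 and 388 ± 46.95 CPM at 96 h (-0.62 ± 0.13) and FASN at -0.53 ± 0.11. The sterol element letters TCACNCCAC, on either strand, stood in 1 of 18 promoters, that of SREBF2, against 1.15% of all.

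Nuclear genes of the respiratory chain were lower at both times. Of 72 tested 39 were lower and 1 higher at 48 h, 57 and 1 at 96 h, and 24 changed downward, as 19.9% of all genes did. Those downward were 9 with the close pairs summed and 60 without the libraries that stand apart, where 1 changed upward. Control libraries also changed downward, 19 against 2 upward, with a median of -0.18 in either line. There 45 were higher and 2 lower with dox at 48 h, and 0 were called either way at 96 h. Beyond the control line 6 were lower and 1 higher, where 11.8% and 6.21% of all genes were. SDHA, of complex II, held 150.4 ± 1.07 CPM without and 124 ± 2.84 CPM with dox at 48 h, and 181 ± 7.44 and 97.5 ± 2.43 CPM at 96 h (-0.62 ± 0.06), and the complex I genes NDUFV1 (-0.70 ± 0.08) and NDUFS7 (-0.77 ± 0.10) moved alike, both overlapped by other genes (11.98% and 49.1% of exons). Of 13 mitochondrially encoded messages 5 changed downward, 2 with the close pairs summed and 9 without the libraries that stand apart. Among them MT-ATP6 changed by -0.77 ± 0.16.

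The dox response of EGF receptor family genes and NF-kB targets mostly changed upward. Between the times the EGF receptor list had a median difference in level of 0.26 with dox and -0.28 without. For the NF-kB list these medians were -0.24 and -0.80, so that levels fell with dox too, and further without. Of 10 EGF receptor family genes 6 changed upward and 2 downward. The ligands HBEGF (1.67 ± 0.13) and AREG (0.57 ± 0.08) and the receptor EGFR (0.52 ± 0.12) were among the former, and the receptors ERBB2 (-0.35 ± 0.08) and ERBB3 (-1.4 ± 0.14) were the latter. Of 18 NF-kB subunits and targets 11 changed upward and 3 downward (9 and 0 with the close pairs summed), with TRAF1 at 1.14 ± 0.10 and BIRC2, an inhibitor of apoptosis, at 0.74 ± 0.08. In the control line 14 changed upward, and beyond it 9 were called lower. The chemokines CXCL8 (1.12 ± 0.14) and CXCL5 (1.02 ± 0.09) moved upward and CCL5 (-1.49 ± 0.25) downward, in a list of 10 with 4 called each way, or 2 and 1 with the close pairs summed.

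Of 26 AP-1 and immediate early genes 7 changed upward and 5 downward (6 and 3 with the close pairs summed, 12 and 5 without the libraries that stand apart), with KLF4 (1.26 ± 0.07) and CCN1 (0.82 ± 0.10) up and ZFP36, which destabilises cytokine messages, down (-0.85 ± 0.10). In the control line 13 changed upward and 1 downward, and beyond it 11 were lower and 0 higher. Feedback genes of RAS and MAPK signalling held 4 upward and 5 downward among 15. The more frequent direction turned under both settings, to 3 and 2 with the close pairs summed and 6 and 4 without the libraries that stand apart, and beyond the control line 6 were lower. DUSP5, an ERK phosphatase, averaged 20.98 ± 0.394 CPM without and 64.4 ± 2.61 CPM with dox at 48 h, then 14.7 ± 0.96 and 105 ± 5.41 CPM (1.21 ± 0.08), and SPRY1 (-0.98 ± 0.08) and ETV1 (-1.19 ± 0.10) changed downward. YAP and TEAD targets held 6 upward and 2 downward among 16, against 6 and 1 with the close pairs summed and 12 and 2 without the libraries that stand apart. Beyond the control line 3 of them were higher and 1 lower. NT5E, which makes adenosine, reversed (1.24 ± 0.06), and so did CCN2 (1.24 ± 0.14). ANKRD1, a target of low level, averaged 0.413 ± 0.145 CPM without and 1.02 ± 0.0677 CPM with dox at 48 h, then 0.23 ± 0.12 and 12.5 ± 3.11 CPM (4.47 ± 0.52).

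Markers of the carcinoma line moved as well. KRT8, a simple epithelial keratin, held 1319.7, 1331 and 1431 CPM without dox and 1513, 1444 and 1463 CPM with dox at 48 h, and 1418, 1421 and 1603 CPM without and 857, 743 and 700.1 CPM with dox at 96 h. Its dox libraries lay slightly above the others at 48 h and below them at 96 h (-1.06 ± 0.10, adjusted p = 8.21e-07). KRT18, its partner (-0.97 ± 0.10), and KRT19 (-1.06 ± 0.08) changed downward, CLDN4, a claudin, was early (0.81 at 48 h and -0.03 at 96 h), and VIM, vimentin, was not called (-0.18 ± 0.08). EPCAM and CDH1, E-cadherin, had at most 2 counts in any library. The summed level of the 9 markers ranged from 11565 to 12581 CPM at 96 h without dox and from 8559.5 to 9429.7 CPM with dox.

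Markers of other cell types were checked in the same libraries. PTPRC had at most 3 counts, CD3D 2, PECAM1 1, VWF 4, and the fibroblast genes LUM and FAP 1. These members of the leukocyte, endothelial and fibroblast lists were at or near 0, while other members of the same lists, given below, were expressed. Of 4 fibroblast markers tested 3 changed downward, COL1A2 and COL3A1, collagen chains, by -2.23 ± 0.08 and -1.96 ± 0.18, and COL1A1 by -2.21 ± 0.47. The list of 8 summed to 222.2 to 246.7 CPM at 96 h without dox and 29.9 to 33.8 CPM with dox. All 3 endothelial markers tested changed downward, CDH5, VE-cadherin, by -1.98 ± 0.24. CDH5 held 38.3, 39.6 and 32.01 CPM without dox and 10.5, 7.16 and 8.08 CPM with dox at 48 h, and 14.5, 15.1 and 17.2 CPM without and 1.25, 0.886 and 0.703 CPM with dox at 96 h, apart at both times. The 6 endothelial genes summed to 82.6 to 89.7 CPM without and 41.0 to 45.8 CPM with dox at 96 h. The 10 leukocyte genes summed to 25.6 to 27.4 and 43.6 to 46.3 CPM, most of it CD68, a lysosomal gene whose exons are overlapped over 85.8% of their length. The part of other cells in these results was not tested. In bulk RNA, fewer cells with a gene and less RNA per cell cannot be told apart.

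Examples of the time classes were taken from the genes with the largest responses. The early gene RSRC2, an arginine- and serine-rich protein, averaged 69.1 ± 1.07 CPM without and 132 ± 5.56 CPM with dox at 48 h, then 71.7 ± 5.64 and 67.7 ± 5.89 CPM (-1.02 ± 0.09). Among sustained genes S100A2, a calcium-binding protein, averaged 5.19 ± 0.59 CPM without and 37.6 ± 2.12 CPM with dox at 48 h, then 11.6 ± 1.85 and 87.5 ± 6.15 CPM (0.07 ± 0.14), and SLC2A3, a glucose transporter, averaged 43.5 ± 1.58 CPM without and 19.3 ± 0.313 CPM with dox at 48 h, then 35.7 ± 1.22 and 14.5 ± 0.379 CPM (-0.13 ± 0.07). The waning genes SFN, or 14-3-3 sigma (-0.66 ± 0.11), and EIF5, which promotes GTP hydrolysis by eIF2 (-0.30 ± 0.07), stayed higher at 96 h, and the change of EIF5 was not called with the close pairs summed (adjusted p = 0.0938). CLDN1, a tight junction claudin, was late and held 114, 116 and 113 CPM without dox and 123, 116 and 121 CPM with dox at 48 h, and 41.6, 39.9 and 43.9 CPM without and 182, 176 and 176 CPM with dox at 96 h. The groups overlapped at 48 h and parted at 96 h (2.02 ± 0.07, adjusted p = 4.03e-11), where its no-dox level was the lowest of the 4 groups. PER1, a clock gene (-1.92 ± 0.11), and WNT7B, a secreted signal (-2.47 ± 0.18), were late and lower. SELENOW, a selenoprotein, reversed (0.23 at 48 h and -1.24 at 96 h), as did CTSL, a lysosomal protease (-0.16 and 1.32).

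Counts of overlapping genes cannot be fully told apart, since the strand setting of the counting is not given in the sources used here. Exons of another gene cover 14.95% to 48.4% of the exonic length of IRF9, BCL2L1, PDIA6, VIM, EXOSC4, BAD, SNHG4, KRT18, FOXM1 and HMGCS1 among the genes named above.

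Some calls of named genes depended on the grouping of the libraries. With the close pairs summed the changes of TRIM25, AURKA, TPX2, HSPA5, EGFR, SKIC2, DIS3, EXOSC3, EXOSC4, EXOSC9 and SQLE were not called (adjusted p from 0.0531 to 0.257). Nor were those of IRF1, SDF2L1, CRELD2 and SIL1 (from 0.064 to 0.162). Without the libraries that stand apart EXOSC3 was not called either (adjusted p = 0.311), whereas PELO (0.22), PARP14 (0.37), HSP90B1 (0.10), MDM2 (-0.16), MCL1 (0.22) and VIM (-0.25) were. So were IFIT5 (0.19), CRELD1 (-0.39), PPIB (0.09) and, in the mitosis list, CENPE.

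The control line gives the same comparison with a non-targeting guide. There 6639 of 20312 genes (32.7%) responded to dox at 48 h and 1020 (5.02%) at 96 h, and the response changed for 4876 (24%), upward for 2721 (13.4%) and downward for 2155 (10.6%). Of the 3613 genes changing upward in the PELO line 1504 (41.6%) were called upward in the control line, and of the 3882 changing downward 1383 (35.6%) were called downward. The change differed between the lines for 3655 genes (18%), higher in the PELO line for 1262 and lower for 2393. The comparison between the lines shares the PELO libraries with the change within the line. For mitosis and interferon genes the medians had the same sign within the PELO line and beyond the control line, whereas the signs differed for 17 of the 42 lists with at least 5 genes tested. In 16 of these the median was above 0 within the PELO line and below 0 beyond the control line. They were the lists of the stress response, transporters, synthetases, asparagine and proline enzymes, p53 targets, the BCL2 family, AP-1, MAPK feedback, YAP targets, NF-kB targets, chemokines, nonsense-mediated decay, initiation factors, autophagy, NRF2 genes and leukocyte markers. DNA replication genes were the other one (-0.59 and 0.02).

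**Figure D5:**
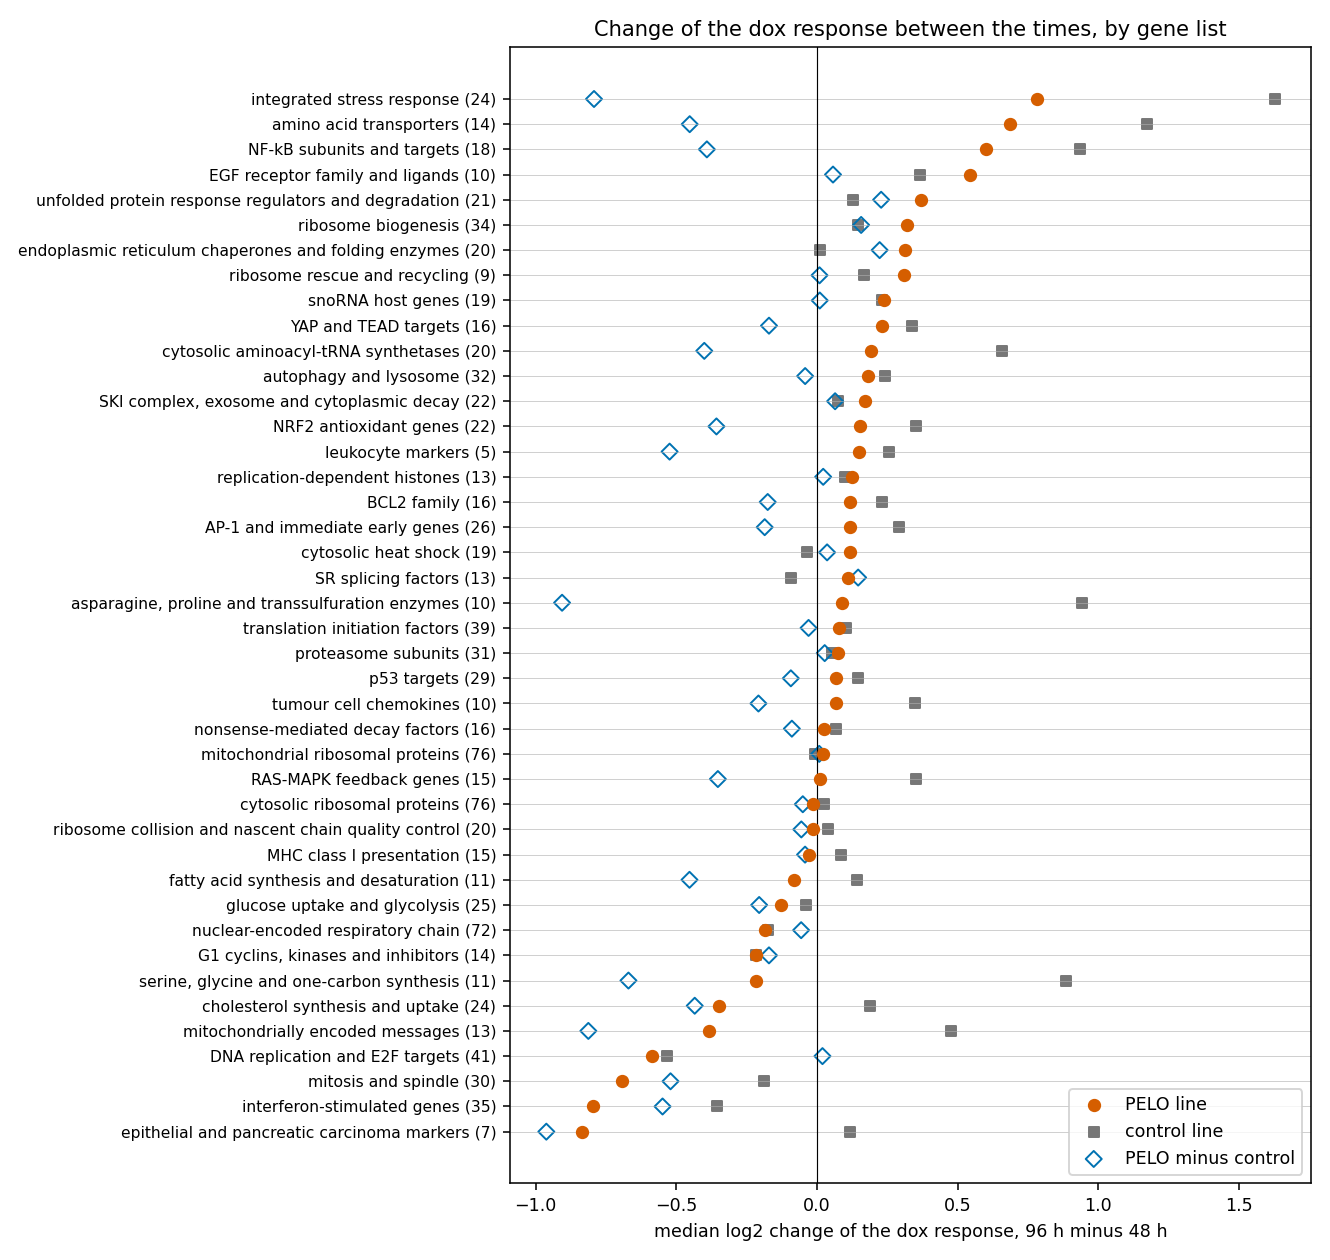
Median log2 change of the dox response between 48 h and 96 h (x axis) for each gene list with at least 5 tested genes (y axis, number tested in brackets), in the PELO line (circles), the control line (squares) and as PELO minus control (diamonds). The integrated stress response is at 0.78, 1.63 and -0.79 in this order, and mitosis at -0.69, -0.19 and -0.52.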

How the data were processed

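RNA was extracted with Qiagen RNeasy and its polyadenylated part made into libraries with the NEB Ultra II kit, per the labels' protocols. The submitters' processing notes name DRAGEN, featureCounts, Subread, edgeR, limma and GRCh38.p13, without versions, order or strand setting. The authors deposited a table of estimated counts per gene for 61544 genes (45.6% of the values above 0 are not whole), which were rounded. They also deposited log2 CPM for 17138 of these genes, used only in an alternative.

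The 12 PELO-line libraries were fitted with edgeR 4.0.16 (R 4.3.3) as 4 group means with TMM scaling, filterByExpr (minimum count 10, total 15) and robust quasi-likelihood F-tests, leaving 8 residual degrees of freedom. Adjusted p-values are Benjamini-Hochberg over 19521 genes, called under 0.05. The filter kept at least 99.94% of the counts, and the median biological coefficient of variation was 0.0614. The comparison with the control line used 24 libraries and 20312 genes. The procedure was tested on simulated data. Depth ranged from 45356024 to 107436235 counts per PELO-line library.

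Named genes were PELO and HBS1L, the 3 members of each list with the smallest adjusted p, up to 3 genes of largest response per time class and direction, and the 5 largest changes each way, with others picked as examples. A few list members are not reported here by name. Members and gene lists were chosen with earlier results of these data known. Alternatives were DESeq2 1.42.0, RLE and upper-quartile scaling, 2 other filters on low counts, all 36 libraries in 1 fit, limma 3.58.1 on the deposited log2 values, a replicate block and leaving out each library. Summing the close pairs and leaving out the libraries that stand apart were chosen after seeing the data. Promoter sequences are RefSeq's for GRCh38.p14.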

Additional observations from a re-analysis of the deposited data

Results flagged for a closer look

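The change of the dox response between 48 h and 96 h differed between the PELO line and the control line, by a test of the difference itself (edgeR's quasi-likelihood test on 24 libraries), for 1262 genes that were higher in the PELO line and 2393 that were lower.

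Among genes named by the rule whose response changed upward within the PELO line, 14 were lower than the control line in this difference. They were TRIB3 (-1.38 on the log2 scale), CTH, which makes cysteine (-1.31), XBP1 (-0.905), SLC1A4 (-0.836), TRAF1 (-0.724), GARS1 (-0.681), HERPUD1 (-0.601), ADAMTS4, an aggrecan-cleaving protease (-0.599), GTPBP2 (-0.571), MMP1, a collagenase (-0.538), SESN2 (-0.501), CLDN1 (-0.422), CEBPB, a transcription factor (-0.417), and KLF4 (-0.408). Lists that hold some of these genes were lower with dox at 48 h in the control line. Their median responses there were -1.74 (stress response), -1.11 (transporters), -0.58 (synthetases) and -0.76 (NF-kB targets). At 96 h they were -0.05, 0.04, 0.07 and 0.16. This control response is part of the difference, and its share in it was not tested. The change of MMP1 within the PELO line was not called without 96 h no dox replicate 2 (adjusted p = 0.0643), without 96 h no dox replicate 3 (0.0597) or without 96 h dox replicate 3 (0.0622).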

How the results depend on the processing

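No called change among the 163 genes named by the rule reversed under the alternatives run. Most of these genes were picked for a small adjusted p or a large response, so a reversal was unlikely from the start. Of all 7495 calls 61.7% were also called the same way with the close pairs summed. Downward calls outnumbered upward ones, but upward ones were the majority without a filter (53.7%), with all 36 libraries (52.6%), with the close pairs summed (51.8%) and without some of the single libraries (up to 52.5%). The more frequent direction also turned for the MHC class I, MAPK feedback, mitochondrial ribosomal and proteasome lists, as given with their counts. The number of genes whose response changed was 7169 with DESeq2 (93.4% of the 7495 calls shared), 7468 with RLE scaling, 7531 with upper-quartile scaling, 7420 without a filter, 6947 at a mean of at least 1 CPM, 8742 with all 36 libraries and 6961 with limma on the deposited log2 CPM, where the share moving upward was at least 47.0%. With the close pairs summed, 2406 genes changed upward and 2240 downward, 308 were early, 45 waning, 1876 growing and 136 reversed. Without the libraries that stand apart there were 893 early, 578 waning and 1053 reversed genes. The cause was not tested in either case. Requiring an absolute log2 change of at least 1 left by construction fewer genes: 653 upward and 830 downward, 886 responding at 48 h and 3786 at 96 h, and 48 early, 34 waning, 735 sustained, 1728 growing, 848 late and 65 reversed.

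Leaving out each library in turn gave 3270 to 3903 genes upward, 3200 to 4095 downward, 7936 to 9412 responding at 48 h and 12172 to 13437 at 96 h. The same change in the control line covered 4129 to 5426 genes, and that beyond it 3271 to 3982. Class sizes ranged from 460 to 629 early, 124 to 196 waning, 3508 to 3764 sustained, 2818 to 3446 growing, 2555 to 3127 late and 320 to 502 reversed.

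Same-numbered libraries did not deviate together (correlations of 0.1, -0.121 and 0.123 at 48 h and -0.155, 0.105 and -0.229 at 96 h), and 1 of the 6 correlated best with its own number. Fitted with a replicate block, 7201 genes were called and the calls of all 163 named genes were kept. All 36 libraries in 1 fit gave 13 AP-1 genes, 18 initiation factors, 19 mitochondrial ribosomal and 9 proteasome genes upward.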

Other observations

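Genes of glucose metabolism changed downward more often than upward. Of 25 genes of glucose uptake and glycolysis 10 changed downward and 5 upward (6 and 4 with the close pairs summed). ALDOC, an aldolase, averaged 4.79 ± 0.191 CPM without and 1.69 ± 0.156 CPM with dox at 48 h, then 6.58 ± 1.0 and 0.589 ± 0.0324 CPM (-1.96 ± 0.19), with 10.1% of its exons overlapped. GAPDH (-0.41 ± 0.09), TPI1 (-0.25 ± 0.10) and PGAM1 (-0.28 ± 0.10), enzymes of the middle of the pathway, were late and lower, and PKM, its last enzyme, grew lower (-0.63 ± 0.09). HK2, which traps glucose as its phosphate, moved the other way (1.37 ± 0.09), as did the importer SLC2A1 (0.34 ± 0.09). The pentose phosphate enzymes PGD (-0.54 ± 0.08), TALDO1 (-0.57 ± 0.09) and TKT (-0.59 ± 0.08) changed downward too. They stand in the NRF2 list, where 9 of 22 changed upward and 6 downward, HMOX1, which degrades haem (0.90 ± 0.08), and AKR1C1 (0.85 ± 0.09) among the former. In the control line 13 of the NRF2 list changed upward and 0 downward, and beyond it 12 were lower and 1 higher. GAPDH, TPI1, PGAM1 and SLC2A1 were not called with the close pairs summed (adjusted p from 0.065 to 0.369).

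Autophagy and lysosome genes moved mostly upward, 16 of 32 against 6 downward (13 and 2 with the close pairs summed). LAMP3, a lysosomal membrane protein, averaged 0.619 ± 0.127 CPM without and 5.06 ± 0.23 CPM with dox at 48 h, then 0.429 ± 0.0574 and 8.22 ± 0.627 CPM (1.24 ± 0.22). The receptor SQSTM1 (0.77 ± 0.07; 22.04% of its exons overlapped) and MAP1LC3B (0.38 ± 0.08), which coats the autophagosome, grew, while TFEB, a transcription factor of lysosomal genes, was early (0.55 at 48 h and -0.10 at 96 h). In the control line 18 of this list changed upward, and beyond it 5 were higher and 9 lower. Of 31 proteasome subunits 5 changed upward and 0 downward, PSMD12 (0.54 ± 0.07) and PSMD14 (0.48 ± 0.09) among the former, where 18.5% of all genes changed upward. These counts were 3 and 0 with the close pairs summed and 8 and 9 without the libraries that stand apart, where the more frequent direction turned. Heat shock genes held 6 of 19 upward and 5 downward, or 5 and 1 with the close pairs summed and 9 and 8 without the libraries that stand apart, with the co-chaperones CHORDC1 (0.62 ± 0.09) and DNAJA1 (0.55 ± 0.06) up and the small chaperone HSPB1 (-0.59 ± 0.10) down.

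Histone genes of the replication-dependent kind have messages without a poly(A) tail, so a poly(A) library reads them only in part. H4C8 changed by 1.68 ± 0.26, H2BC21 by 1.48 ± 0.14 and H4C3 by -1.38 ± 0.45, which was not called with the close pairs summed (adjusted p = 0.156).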
